A study of Mus musculus with 14 samples.

Results

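The 8 genes described here encode enzymes of cholesterol synthesis, *Hmgcs1*, *Idi1*, *Fdft1*, *Sqle*, *Lss*, *Cyp51*, *Dhcr7*, and *Sc5d*, chosen by gene symbol among 24062 genes counted in bulk RNA of mouse plexiform neurofibromas (PNs) and control tissue. All 8 were in the count table and all 8 passed the filter on low counts in every comparison. The tissue came from mice on a mixed C57BL/6, I-129 and FVBN background that received no drug. Control libraries (n = 3) were made from dorsal root ganglia (DRGs) with their nerves, of genotype Nf1fl/fl, which carry the floxed alleles without Cre. PN libraries (n = 11) came from DhhCre;Nf1fl/fl mice, in which Cre driven by *Dhh* deletes *Nf1* in the Schwann cell (SC) lineage and leaves the gene in the other cells of the tumor. By repeated MRI scans, 5 PNs whose volume changed by less than 5 mm3 in 2 months were named slow growing, and 6 that gained more than 35 mm3 were named fast growing. The Methods place the tissue at 9 months of age and a legend at 7 months. Each library carries its own number in the labels, which do not say that each came from a separate mouse, so p-values measure the spread between these libraries.

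Cholesterol is made from acetyl-CoA in all nucleated cells, first through mevalonate to isoprenoid units, then through squalene to a closed sterol ring, and last through steps that trim and reduce that ring. In peripheral nerve the pathway is known for its role in myelin, since SCs make much of the cholesterol of their own myelin sheaths, and neurons and glia of ganglia also carry the enzymes. When sterols run low, the membrane-bound factor SREBP2 (*Srebf2*) is cut by proteases in the Golgi and raises transcription of most genes of the pathway together, with the help of NF-Y and Sp1 at their promoters.

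Promoter sequences are shown for *Hmgcs1*, the only matched member that holds a core of the sterol regulatory element, and for *Lss*, the only member called changed in any comparison. RefSeq promoters (GRCm38.p6, 250 bases before to 50 after each start) were matched for 6 of the 8 genes, with 8 promoters in all because *Dhcr7* has 3; *Fdft1* and *Sqle* were not matched. The letters TCACNCCAC (sterol element), CCAAT (NF-Y), and GGGCGG (Sp1) were searched on both strands, and none of these 3 motifs contains another. The windows lie wholly upstream of the annotated start on the plus strand, are written from 5′ to 3′, and have every match in capitals.
Hmgcs1 chr13:119690104-119690342, plus strand: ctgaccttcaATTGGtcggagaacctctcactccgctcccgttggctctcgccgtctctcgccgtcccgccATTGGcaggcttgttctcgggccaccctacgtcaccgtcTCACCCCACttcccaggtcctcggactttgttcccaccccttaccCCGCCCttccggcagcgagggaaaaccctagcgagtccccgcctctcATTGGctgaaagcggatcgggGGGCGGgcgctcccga
Lss chr10:76531429-76531557, plus strand: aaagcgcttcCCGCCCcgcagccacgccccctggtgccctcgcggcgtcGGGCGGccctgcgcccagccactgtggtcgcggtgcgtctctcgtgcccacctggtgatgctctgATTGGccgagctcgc
The *Hmgcs1* window holds TCACCCCAC once, between matches to CCAAT and GGGCGG on either strand. That sterol letter string was in 1 of 6 matched members and in 1.24% of 32851 RefSeq promoters of the same length. CCAAT was in 6 of 6 members (6 of their 8 promoters) and in 37.4% of all promoters, and GGGCGG was in 6 of 6 members (7 of 8 promoters) and in 35.7% of all promoters. A match describes the letters only, and the absence of the sterol letters from a window says nothing of whether SREBP2 acts there.

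Some facts of the whole series bear on these genes. Between 9596773 and 17594164 reads were counted per library, and no 2 libraries had the same count in more than 1.45% of genes with a mean count of at least 10. Levels are counts scaled to a common library size (CPM) after TMM normalization over all 14 libraries. *Nf1* was not lower in PNs than in controls (229, 153, and 131 CPM in the 3 controls; 256 ± 24.6 in slow-growing PNs, SD, n = 5; 242 ± 21.5 in fast-growing PNs, SD, n = 6), so counts over the whole gene did not check the genotype. Markers of SCs were present in all libraries, with a summed level of the lineage markers *Sox10*, *S100b*, and *Erbb3* of 193–628 CPM in controls, 566–892 in PNs of slow growth, and 560–803 in those of fast growth. The controls also held fat and skeletal muscle RNA, with summed fat markers of 4563–6899 CPM against 45.6–3678 in slow-growing and 44.3–332 in fast-growing PNs, and summed muscle markers of 3829–15672 CPM against 30.6–3623 and 77.3–2363. In bulk tissue, fewer cells of a type and less RNA per cell cannot be told apart.

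The 8 enzymes did not separate PNs from control DRGs or fast-growing from slow-growing PNs. In each of the 4 comparisons, every one of the 8 had overlapping groups, and the only call was a lower level of *Lss*, the enzyme that closes squalene epoxide into lanosterol, in fast-growing PNs. No member was called in slow-growing PNs versus controls, where 11.3% of all genes tested were called by edgeR's quasi-likelihood test at a Benjamini-Hochberg adjusted p under 0.05 and 23.4% did not overlap between groups. In fast-growing PNs versus controls 1 of 8 was called, against 31.4% of all genes (14.8% higher and 16.7% lower) and 32.5% with groups that did not overlap. In all 11 PNs versus controls 0 of 8 was called, against 26.3% (12.9% higher, 13.4% lower) and 17.7% not overlapping. Between fast- and slow-growing PNs 0 of 8 was called, against 1.27%, and 3.01% of all genes did not overlap. At an unadjusted p under 0.05 the same counts were 0, 1, 0, and 0. The share of all genes at that threshold is not given here. By adjusted p and by overlap of groups, the counts of the 8 were at or below the background of each comparison.

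*Hmgcs1*, which condenses acetyl groups into HMG-CoA at the head of the pathway, had the highest level of the 8. Its level was 373, 222, and 205 CPM in the controls, 232, 157, 269, 628, and 285 CPM in the slow-growing PNs, and between 105 and 369 CPM in the fast-growing PNs, with a median of 221. One slow-growing PN, library 1203, stood above all other libraries and one fast-growing PN, library 1191, stood below all others, while the remaining PNs lay within or near the range of the controls. Versus controls, the log2 fold change was 0.19 ± 0.43 (SE) for slow growers and -0.19 ± 0.35 for fast growers (edgeR adjusted p = 0.776 and 0.729).

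*Idi1*, which isomerizes the first isoprenoid unit, was at 67.3 ± 21.9 CPM in controls (SD, n = 3), 100.4 ± 59.8 in slow-growing PNs (n = 5), and 81.6 ± 32.4 in fast-growing PNs (n = 6). *Fdft1*, the squalene synthase that commits farnesyl units to sterols, was at 174, 122, and 104 CPM in controls, 118, 98.5, 180, 363, and 136 CPM in the slow-growing PNs, and 38.3 to 231 CPM in the fast-growing PNs with a median of 116. The highest and lowest of these 14 values again belonged to libraries 1203 and 1191. *Sqle*, the squalene epoxidase and a rate-limiting step of the later pathway, was at 81.1 ± 45.9 CPM in controls, 119.8 ± 85.1 in slow-growing, and 104.1 ± 48.2 in fast-growing PNs. For these 3 genes the fold changes versus controls lay between -0.05 and 0.53 on the log2 scale, and each 95% confidence interval included 0.

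*Lss* was at 56.9, 37.6, and 33.4 CPM in the controls and at 20.7 to 33.9 CPM in the fast-growing PNs, with a median of 24.5. Of the 6 fast-growing PNs, library 1214 (33.9 CPM) lay just above the lowest control and the other libraries lay below all controls. The log2 fold change was -0.80 ± 0.19 (SE; 95% confidence interval -1.22 to -0.37; edgeR adjusted p = 0.0112), a ratio of 0.576. This call was kept under 18 of 20 alternative settings, with adjusted p between 0.00182 and 0.923, and was lost when all 14 libraries entered one fit (-0.75 ± 0.32, adjusted p = 0.0943) and when muscle and fat scores were covariates (-0.66 ± 0.73, adjusted p = 0.923, a fit in which 0 of 16037 genes were called). The fat and muscle values above moved in the same direction as *Lss*, and their part in this result was not tested. In the slow-growing PNs *Lss* was at 21.2, 25.2, 24.1, 67.1, and 33.6 CPM, and the fold change of -0.36 ± 0.38 did not pass (adjusted p = 0.533). Among these, library 1203 alone stood above all controls, and without it *Lss* was lower in all PNs versus controls (-0.73 ± 0.18, adjusted p = 0.00874; with it -0.54 ± 0.31, adjusted p = 0.214).

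The 3 enzymes that work on the sterol ring are *Cyp51*, which removes a methyl group from lanosterol, *Sc5d*, which puts in a double bond, and *Dhcr7*, which makes cholesterol in the last step of one branch. *Cyp51* was at 77.0 ± 28.6 CPM in controls, 100.6 ± 36.9 in slow-growing, and 99.3 ± 18.8 in fast-growing PNs. *Dhcr7* was at 38.0 ± 12.1, 55.2 ± 35.5, and 48.2 ± 19.8 CPM in the same order. *Sc5d* was at 107, 79.2, and 41.4 CPM in controls, 60.8, 53.0, 74.0, 123, and 76.0 CPM in the slow-growing PNs, and 35.7 to 76.6 CPM in the fast-growing PNs with a median of 51.5. The controls of *Sc5d* alone spanned most of the range of the PNs, and its fold change in fast-growing PNs was -0.51 ± 0.29 (adjusted p = 0.221).

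**Figure D1:**
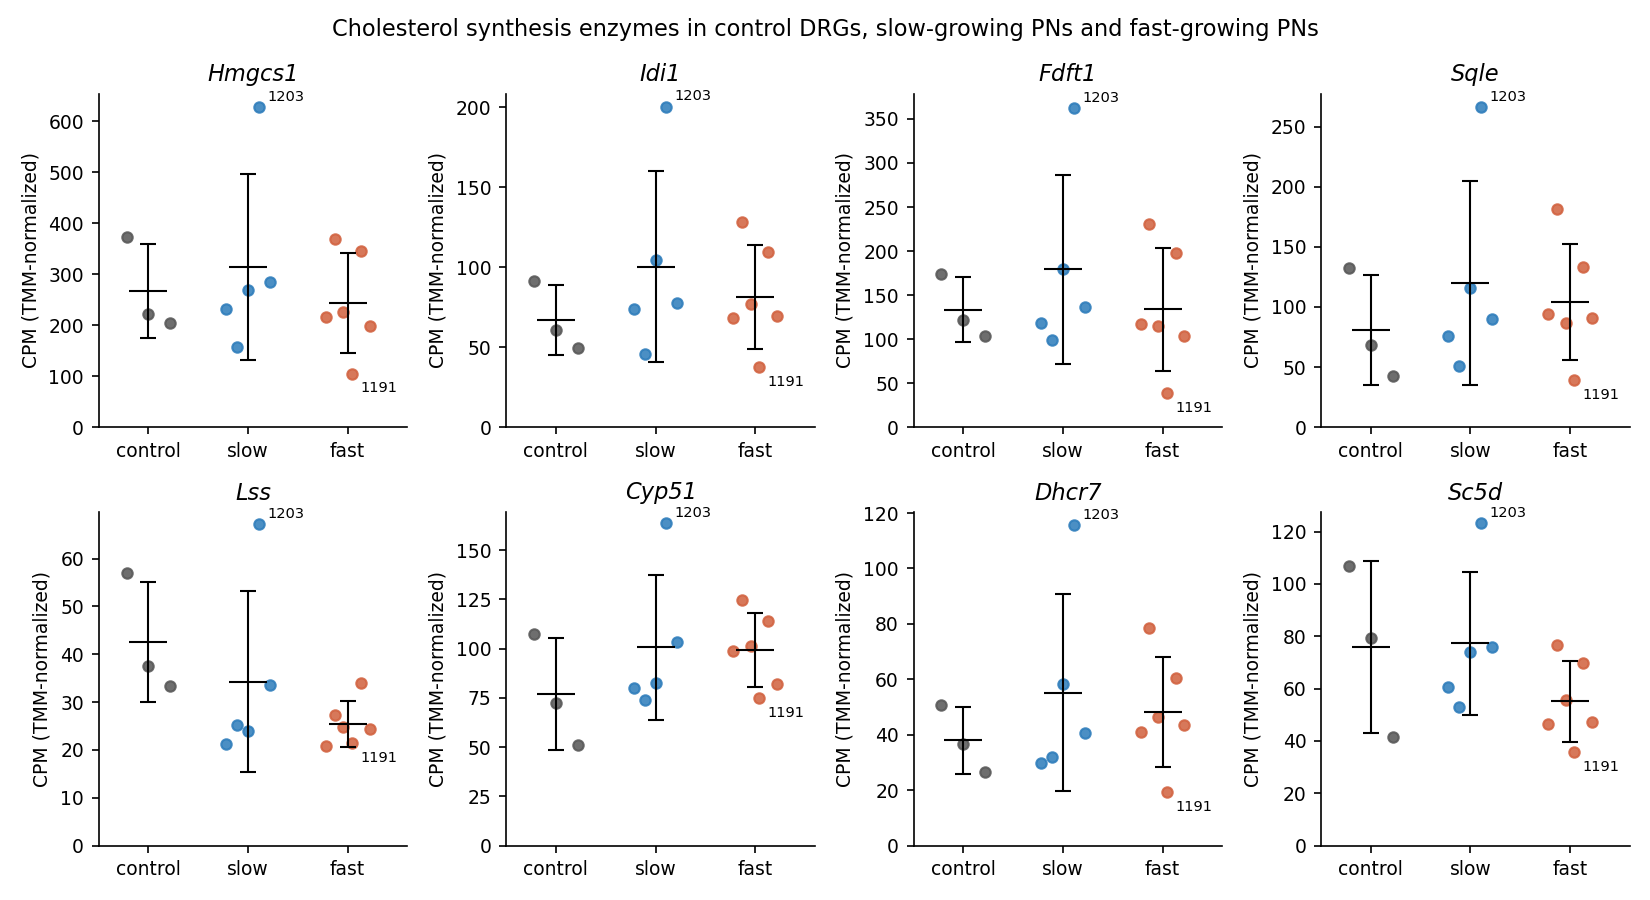
Level of each enzyme (y axis, CPM after TMM normalization) in control DRGs (n = 3), slow-growing PNs (n = 5), and fast-growing PNs (n = 6). Each point is a library, the wide bar is the mean, and the error bars are the SD; library 1203 is the highest point in all 8 panels and library 1191 the lowest in 6.

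Divided by the length of the longest annotated transcript (GENCODE vM21, mm10), the levels in controls ran from 77.0 ± 26.7 CPM per kb for *Hmgcs1*, through 36.05 ± 9.92 for *Fdft1*, 22.2 ± 7.25 for *Idi1*, 19.6 ± 7.26 for *Cyp51*, 18.2 ± 10.3 for *Sqle*, 15.8 ± 6.86 for *Sc5d*, and 13.5 ± 4.30 for *Dhcr7*, to 6.09 ± 1.80 for *Lss*. *Hmgcs1*, *Fdft1*, and *Lss* stood apart from their neighbours in this order by more than the SD of either gene, and the genes between *Idi1* and *Dhcr7* did not. *Hmgcs1* led and *Lss* was last in both kinds of PN also, at 90.7 ± 52.6 and 4.90 ± 2.71 CPM per kb in slow-growing and 70.2 ± 28.3 and 3.63 ± 0.686 in fast-growing PNs. On the opposite strand, exons of *Fdft1* overlap *Ctsb* by 774 bases, those of *Cyp51* overlap *Akap9* by 166, and those of *Lss* overlap 4930483K19Rik by 381. Those of *Hmgcs1* overlap Gm48342 by 557 bases and those of *Idi1* overlap Gm48574 by 323. The symbols of these 2 overlapping genes were absent from the count table, so they have no levels here. The sources do not state whether reads were counted by strand, so reads of those bases cannot be assigned; *Ctsb* (611–1244 CPM) and *Akap9* (190–313 CPM) were not called in any comparison, and 4930483K19Rik did not exceed 2.28 CPM.

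Between fast- and slow-growing PNs, all 8 fold changes were below 0 and 0 of 8 passed. The values lay between -0.49 ± 0.24 for *Sc5d* (95% confidence interval -1.02 to 0.05, edgeR adjusted p = 0.286) and -0.02 ± 0.22 for *Cyp51* (-0.49 to 0.46, adjusted p = 0.965), with a median of -0.33 beside a median of -0.03 over all genes tested. This common direction did not hold without library 1203. Leaving it out put 6 of 8 fold changes above 0, between 0.00088 for *Fdft1* and 0.32 for *Sqle*, whereas leaving out library 1191 put only that of *Cyp51* above 0 (0.043). Without both, an alternative added after the data were seen, 6 of 8 were also above 0, with values between -0.19 and 0.46 and adjusted p between 0.388 and 0.969. With all libraries, the lower bound of the 95% interval lay under -1 for 7 of 8 genes and the upper bound above 1 for 0 of 8, so the comparison does not show that the growth groups were alike.

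**Figure D2:**
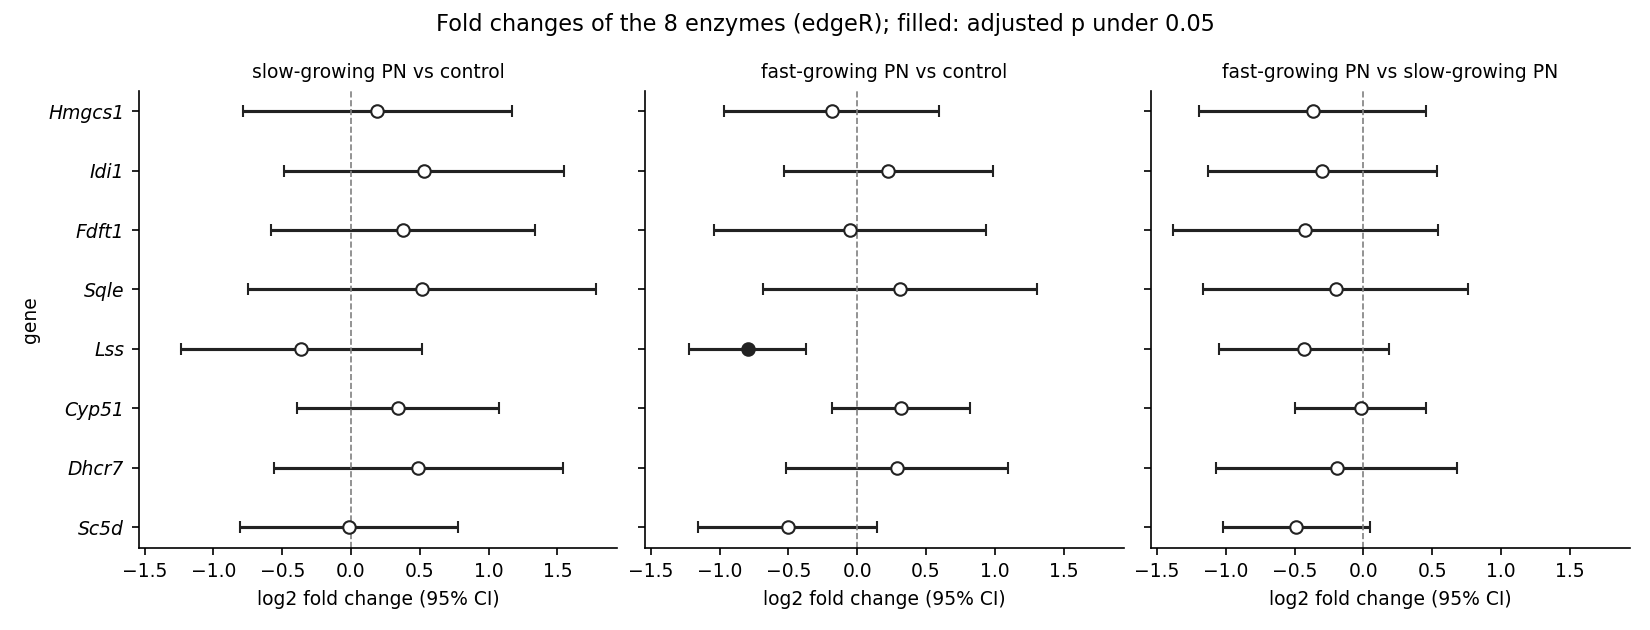
Log2 fold change (x axis) of each enzyme (y axis) in 3 comparisons, with 95% confidence intervals from edgeR's quasi-likelihood fit; filled points passed an adjusted p of 0.05. Only *Lss* in fast-growing PNs versus controls (-0.80) is filled, and the intervals of the other points include 0.

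The enzymes varied together from tumor to tumor. Averaged over the 8 genes, the level on the log2(CPM + 1) scale was 6.83, 6.23, and 5.81 in the controls. It was 6.12, 5.87, 6.54, 7.60, and 6.44 among slow-growing tumors and ranged from 5.36 to 6.91 among the 6 fast-growing ones. The spread between libraries of a group (SD 0.512, 0.663, and 0.546) was larger than the distance between the group means (6.29, 6.51, and 6.27). Library 1203 had the highest level of all 14 libraries for 8 of 8 genes, and library 1191 the lowest for 6 of 8; for *Lss* the lowest was library 1053 and for *Cyp51* the control DRG5. Over the 11 PNs, all 28 pairs of the 8 genes correlated positively, with a median Pearson r of 0.892 (0.713 to 0.984), and within growth groups the median was 0.946. These correlations describe libraries that share depth and tissue composition and are given without a test.

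Other enzymes of the pathway followed the 8 across the tumors. Of 13 further enzymes, 12 correlated positively over the 11 PNs with the mean of the 8, with a median r of 0.934, and 11 had an r above 0.85. Among the 10973 genes whose log2(CPM + 1) averaged 3 or more in PNs, which include all 13, 52.5% had an r above 0, 12.0% had one above 0.85, and the median was 0.080. Among them were *Msmo1* (0.975), a methyl oxidase that acts after *Cyp51*, *Hsd17b7* (0.957), *Fdps* (0.948), and *Nsdhl* (0.947). *Lbr*, a sterol reductase that also anchors chromatin at the nuclear envelope, ran the other way (-0.881), with 17.1 CPM in library 1203 and 49.1 CPM in library 1191. Of the 10973 genes, those most like the mean of the 8 were *Pde6d* (0.979), *Msmo1* (0.975), *Vps4a* (0.974), *Usp22* (0.972), and *Samd10* (0.971), of which only *Msmo1* is a sterol enzyme.

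Neuron markers moved with the enzymes. DRGs contain the cell bodies of sensory neurons, and 10 neuron markers (such as *Tubb3*, *Nefl*, and *Prph*) summed to 13204 CPM in library 1203 and to 33.6 CPM in library 1191, where 4 of 10 were under 1 CPM and none was at 0 counts. In the other 9 PNs the sum lay between 2208 and 7902 CPM, and in the controls it was 5841, 2737, and 1597 CPM, in the same order as the enzymes. Over the 11 PNs, the mean of the 8 correlated with the mean neuron marker level with a Pearson r of 0.792 and a Spearman rho of 0.855, and with an r of 0.717 without libraries 1191 and 1203. The list of satellite glia had an r of 0.537 (rho 0.464; r of 0.377 without the same 2 libraries), but its 2 genes ran opposite ways, *Fabp7* with an r of 0.828 and *Kcnj10* with one of -0.351 to the mean of the 8. Markers of myelinating SCs, such as *Mbp* and *Prx*, had an r of 0.0051, markers of perineurial cells -0.825, and markers of fibroblasts -0.755; without libraries 1191 and 1203 these were 0.056, -0.675, and -0.205. The part of neurons or of other cells in the variation of the enzymes was not tested.

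**Figure D3:**
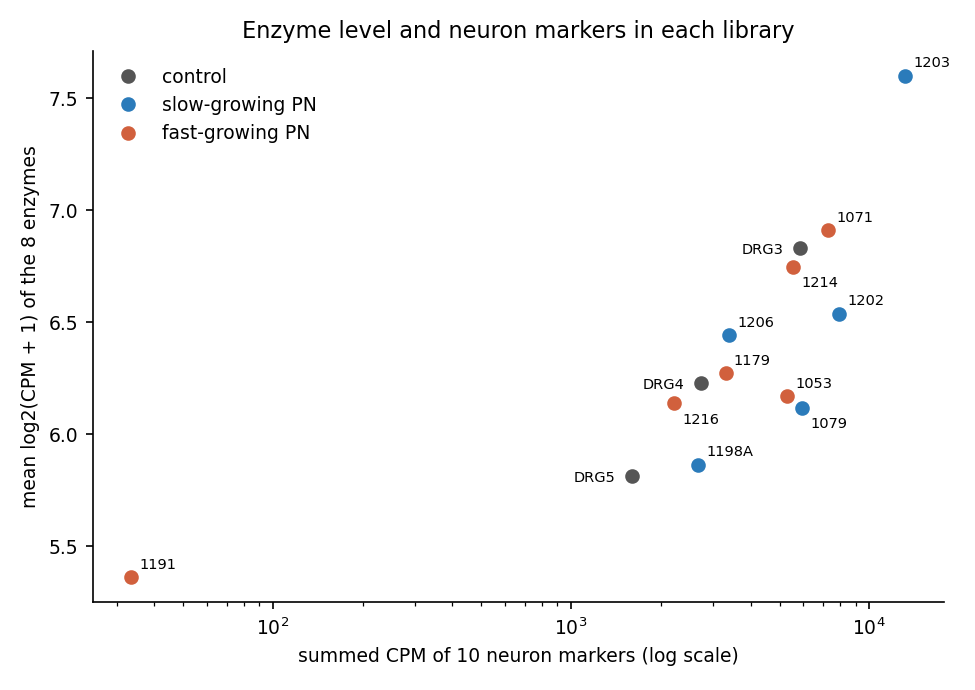
Mean log2(CPM + 1) of the 8 enzymes (y axis) against the summed CPM of 10 neuron markers (x axis, log scale); each point is a library, labelled by its name and colored by group. Library 1191 (33.6 CPM) is at the lower left, library 1203 (13204 CPM) at the upper right, control DRG5 (1597 CPM) lies below and to the left of the other PNs, and the other controls lie among them.

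None of the 13 other enzymes was called in any of the 4 comparisons. At an unadjusted p under 0.05 their counts were 1 in slow-growing PNs versus controls and 2 in fast-growing PNs versus controls. They were 0 in all PNs versus controls and 0 between growth groups, and the share of all genes at that threshold is not given here. Without library 1203, calls of the 13 became 2 in slow-growing PNs versus controls. They became 1 in fast-growing PNs versus controls without DRG3, library 1071, or library 1191, and 1 in all PNs versus controls without DRG3. The number of all genes called in those fits is not given here, so these counts have no background. With the neuron score as a covariate, the fits of these 3 comparisons called 1993 of 15714, 6091 of 16037, and 5477 of 16283 genes. There, 2, 4, and 2 of the 13 enzymes were called. With no covariate and no library left out, the median log2 fold change of these 13 was 0.18 in slow-growing PNs versus controls. It was -0.08 in fast-growing PNs versus controls, 0.11 in all PNs versus controls, and -0.29 between growth groups. For the 8 enzymes the medians were 0.36, 0.09, 0.29, and -0.33 in the same order. For all genes tested they were 0.04, 0.02, 0.10, and -0.03.

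Of 16 genes that control SREBP2 or take up cholesterol, 4 rose and 2 fell in all PNs versus controls, where 12.9% of all genes were called higher and 13.4% lower. These 6 calls became 3, 1, and 3 without control DRG3, DRG4, or DRG5, in fits whose calls over all genes are not given here. They became 1 with muscle and fat scores as covariates, a fit in which 517 of 16283 genes were called. *Mbtps2*, the protease that makes the second cut in SREBP2, rose from 22.7 ± 2.41 to 32.8 ± 2.47 CPM (log2 fold change 0.53 ± 0.11, edgeR adjusted p = 0.00293), and every PN stood above every control. *Srebf2* itself rose from 55.5 ± 15.7 to 88.3 ± 16.2 CPM (0.67 ± 0.20, adjusted p = 0.022). *Insig1*, which helps hold SREBP2 in the endoplasmic reticulum and is itself its target, fell from 244 ± 91.9 to 113 ± 45.2 CPM (-1.12 ± 0.32, adjusted p = 0.019). *Npc2*, which carries cholesterol inside lysosomes, fell from 173 ± 29.0 to 96.5 ± 23.3 CPM (-0.84 ± 0.20, adjusted p = 0.00813). *Npc1*, its partner in the lysosomal membrane, and *Mbtps1*, the protease of the first cut, rose by 0.55 ± 0.18 and 0.41 ± 0.14 with adjusted p of 0.0378 and 0.0405, and kept these calls under 16 and 9 of 25 alternative settings. The call of *Srebf2* was lost without control DRG4 or DRG5 (adjusted p = 0.120 and 0.147), and that of *Insig1* without DRG3 or DRG4 (adjusted p = 0.113 and 0.0763). The call of *Npc2* was lost without DRG4 (-0.70, adjusted p = 0.0694), and those of *Npc1* and *Mbtps1* on leaving out any one of the 3 controls (adjusted p from 0.0674 to 0.145 and from 0.0684 to 0.193). With the muscle and fat covariates, the fold changes of *Mbtps2*, *Srebf2*, *Insig1*, *Npc2*, and *Mbtps1* were 0.58, 0.35, -0.65, -1.27, and 0.15, with adjusted p of 0.123, 0.533, 0.475, 0.0747, and 0.709. *Npc1* alone kept its call there, with a larger fold change of 1.07 ± 0.24 (adjusted p = 0.0317). The part of the fat and muscle RNA of the controls in these changes was not tested further.

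Genes of fatty acid synthesis, which share part of the SREBP control, are given beside the sterol enzymes. In fast-growing PNs versus controls, 9 of its 14 genes fell and 2 rose, where 16.7% of all genes were called lower and 14.8% higher, with a median log2 fold change of -2.23 beside 0.09 for the 8 enzymes. *Fasn*, the fatty acid synthase, was at 4854 ± 1087 CPM in controls and 318 ± 105 in fast-growing PNs (-3.99 ± 0.28, edgeR adjusted p = 2.4e-05), and *Acaca*, which makes its substrate malonyl-CoA, was at 1096 ± 251 and 170 ± 44.4 CPM. The desaturases of polyunsaturated chains went the other way. *Fads2* rose from 14.6 ± 6.84 to 53.8 ± 7.57 CPM (1.84 ± 0.26, adjusted p = 0.000744), and *Fads1* rose from 139 ± 64.3 to 297 ± 20.1 CPM. With muscle and fat scores as covariates, the fit of fast-growing PNs versus controls called none of the 14 genes, and 0 of 16037 in all. In all PNs versus controls, the fold changes of *Fads2* and *Fads1* went from 1.61 and 1.01 to 0.65 and 0.63 with these covariates, and both calls were lost (adjusted p = 0.392 and 0.323). All 13 fat markers fell in fast-growing PNs versus controls, with a median log2 fold change of -5.56, and 4 of 13 fell in all PNs versus controls, with a median of -2.49; the part of fat tissue in the controls in the fall of the 9 genes and the rise of the 2 was not tested further. In all PNs versus controls, 6 of the 14 genes fell and 3 rose, beside 13.4% and 12.9% of all genes. Between growth groups 0 passed, beside 1.27%. At an unadjusted p under 0.05 the count was 10, but the share of all genes at that threshold is not given here, so it has no background. Without library 1203, 8 of the 14 passed between growth groups, in a fit that called 578 of 15637 genes. Without control DRG3, DRG4, or DRG5 the 9 calls in all PNs versus controls became 4, 3, and 5. The number of all genes called in those fits is not given here, so these counts have no background. Over the 11 PNs, none of the 14 genes had an r above 0.85 with the mean of the 8 (-0.572 to 0.560).

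**Figure D4:**
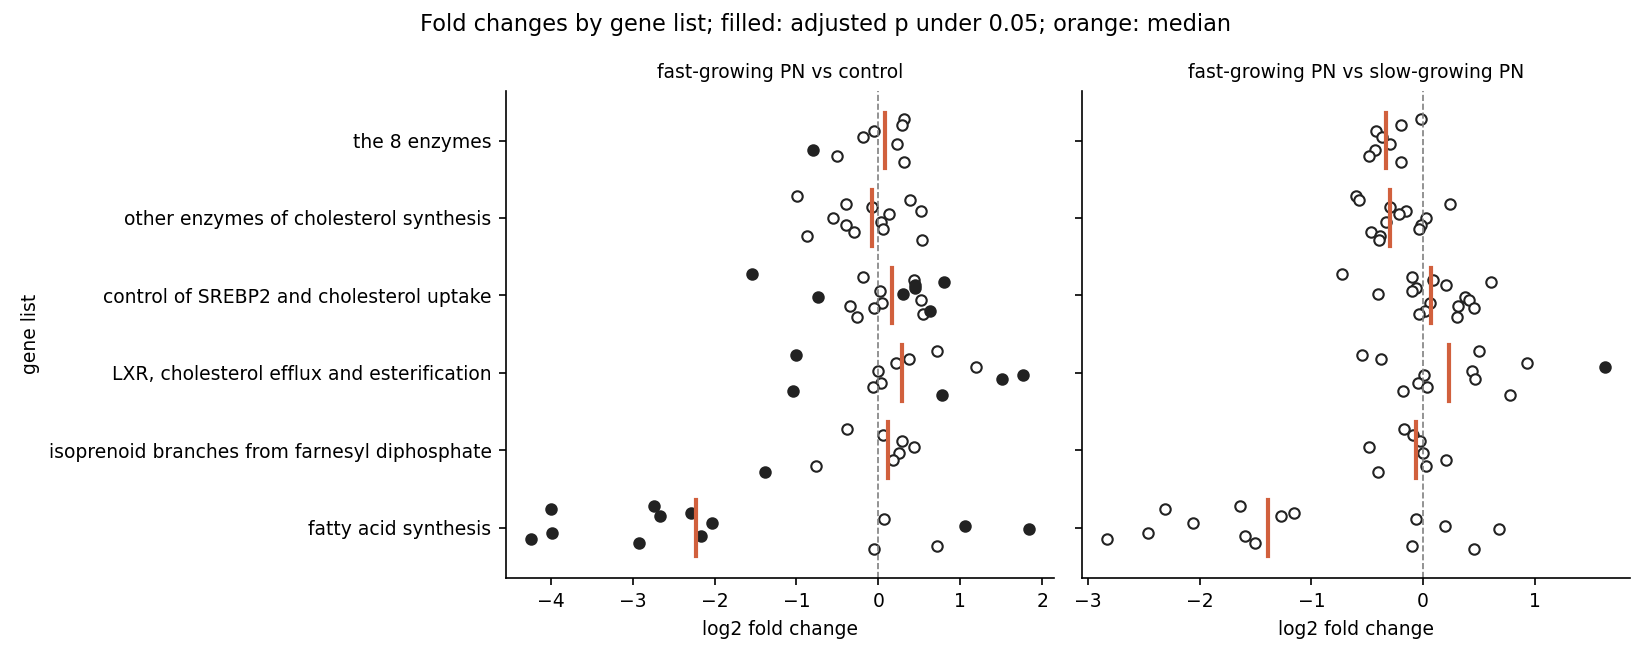
Log2 fold change (x axis) of the genes of 6 lists (y axis) in fast-growing PNs versus controls and versus slow-growing PNs. Each point is a gene, filled where adjusted p was under 0.05, and the orange bar is the list's median; the median of fatty acid synthesis versus controls is -2.23 and that of the 8 enzymes is 0.09.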

How the data were processed

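Bulk RNA-seq libraries of 14 samples were analysed: 3 control DRGs, 5 slow-growing PNs, and 6 fast-growing PNs. Total RNA was amplified with an Ovation kit. The authors aligned reads to mm10 with TopHat2 2.0.9 and deposited whole-number counts per gene from featureCounts 1.5.2 without normalization, per the submitters' processing notes; whether strand was used is not given in the sources used here. The authors' 10 columns headed only by a number held whole-number counts and were tested as counts. Only their unit was recorded as other, because of that header. A deposited table of log2 values, normalized by the authors with edgeR 3.16.5, was not used. The number of value columns without a sample was 0.

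Groups were compared in R 4.3.3 with edgeR 4.0.16 on the libraries of each comparison, with filterByExpr, TMM factors, the quasi-likelihood test, and Benjamini-Hochberg adjustment over all genes tested (called at 0.05). CPM used TMM factors over all 14 libraries, with a pseudocount of 1 for log2 scores. No covariate was used, since the labels give no batch; a difference in preparation cannot be told apart from one between tissues. The 8 genes, the gene lists, and the motifs were chosen with earlier results of these data known. Named from each list were *Srebf2*, *Insig1*, up to 4 genes with the lowest p in all PNs versus controls, and up to 2 between growth groups, plus the 5 genes most like the enzymes; *Fasn*, *Acaca*, and the further enzymes given with an r were named after their values had been seen. Some genes of the lists are not reported here. Alternatives used limma 3.58.1, DESeq2 1.42.0, and other filters, factors, covariates, and libraries. In simulated counts with 200 genes shifted by 2 on the log2 scale, edgeR recovered 63% (slow-growing PNs versus controls, 15463 genes), 70.5% (fast-growing versus controls, 15835), 76.5% (all PNs versus controls, 16051), and 81% (fast- versus slow-growing, 15290); 3.82%, 4.08%, 3.77%, and 4.71% of its calls were false. The simulated shift was larger than any fold change given here for the 8 enzymes, so these rates do not describe recovery of changes of their size. Positions and lengths came from GENCODE vM21 (22750 genes matched by symbol, 921 by an older symbol, 391 unmatched). PCR-amplified reads are not independent molecules, and depth limits the precision of low levels. Plots used matplotlib 3.10.9 (Python 3.11.15).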

Additional observations from a re-analysis of the deposited data

Results flagged for a closer look

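Of 70 groups checked (35 genes in 2 kinds of PN), 6 had a library that stood apart from the rest of its group by Dixon's ratio of gap to range, where chance alone would mark about 1 in 20. Library 1203 stood apart among the slow-growing PNs for 3 genes, of which 2 were among the 8 enzymes. Its level was 628 CPM for *Hmgcs1*, with the next library at 285 CPM, and 67.1 CPM for *Lss*, with the next at 33.6 CPM. The remaining gene was *Nsdhl*, a sterol dehydrogenase, at 130.4 CPM. Library 1191 stood apart among the fast-growing PNs for *Lbr*, at 49.1 CPM. Library 1198A stood apart among the slow-growing PNs with a low 31.2 CPM of *Abcg1*, a sterol exporter, and a high 636 CPM of *Apoe*, the main lipid carrier of nervous tissue. *Ch25h*, which makes 25-hydroxycholesterol, differed between growth groups in the direct comparison of PNs, which held no controls. The log2 fold change was 1.63 ± 0.35 (SE, edgeR adjusted p = 0.0484). Fast-growing PNs had 3.24 ± 1.23 CPM against 1.04 ± 0.375 CPM for slow growers, and the 2 kinds of PN did not overlap. *Ch25h* passed under 6 of 22 alternative settings.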

How the results depend on the processing

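The count of members called was 0 under all 19 alternatives for slow-growing PNs versus controls and under all 22 for fast- versus slow-growing PNs. For fast-growing PNs versus controls it was 1 under 18 of 20, 0 with all 14 libraries in one fit, and 0 with covariates for the muscle and fat scores; leaving out 1 library at a time gave 1 to 1. For all PNs versus controls it was 0 under 23 of 25, 1 without libraries 1191 and 1203 (chosen after the data were seen), and 0 to 1 with 1 library left out. Several fold changes that passed in no setting changed sign, and the cause was not tested. In slow-growing PNs versus controls, *Sc5d* was 0.0087 with RLE factors, 0.0088 with DESeq2, 0.030 with limma-voom, 0.0054 without the filter, and 0.028 with all 14 libraries. With muscle and fat covariates, *Hmgcs1*, *Fdft1*, *Sqle*, *Cyp51*, and *Dhcr7* were -0.65, -0.24, -0.34, -0.49, and -0.15. With the neuron score as a covariate (chosen after the data were seen), *Hmgcs1*, *Idi1*, *Fdft1*, *Sqle*, and *Dhcr7* were -0.32, -0.087, -0.19, -0.16, and -0.10. Without libraries 1191 and 1203, *Hmgcs1* was -0.18 and *Fdft1* -0.0083. In fast-growing PNs versus controls, *Fdft1* was 0.0030 with all 14 libraries, 0.62 with muscle and fat covariates, 0.020 with the length and GC trend removed, and 0.14 without libraries 1191 and 1203, and *Hmgcs1* was 0.22 with muscle and fat covariates. In all PNs versus controls, *Hmgcs1* was -0.0032 with RLE factors, -0.014 with upper-quartile factors, -0.0031 with DESeq2, -0.038 with limma-voom, -0.096 with the trend removed, -0.023 with the neuron score, and -0.11 without libraries 1191 and 1203, and *Sc5d* was 0.046 with muscle and fat covariates. In fast- versus slow-growing PNs, *Cyp51* was 0.0037 with upper-quartile factors, 0.022 with limma-voom, and 0.0031 with the trend removed. With the neuron score, *Idi1*, *Sqle*, *Cyp51*, and *Dhcr7* were 0.068, 0.23, 0.13, and 0.19. Without libraries 1191 and 1203, *Hmgcs1*, *Idi1*, *Fdft1*, *Sqle*, *Cyp51*, and *Dhcr7* were 0.17, 0.24, 0.16, 0.46, 0.26, and 0.40. With 1 library left out, sign changes fell in these ranges: slow-growing versus controls, *Sc5d* -0.31 to 0.30, *Hmgcs1* -0.18 to 0.50, and *Fdft1* -0.0083 to 0.61. They were -0.27 to 0.16 for *Fdft1* and -0.33 to 0.11 for *Hmgcs1* in fast-growing versus controls, and -0.15 to 0.37 for *Hmgcs1* and -0.51 to 0.12 for *Sc5d* in all PNs versus controls. In fast- versus slow-growing PNs they were -0.11 to 0.22 for *Cyp51*, -0.35 to 0.26 for *Dhcr7*, -0.61 to 0.00088 for *Fdft1*, -0.54 to 0.042 for *Hmgcs1*, -0.48 to 0.11 for *Idi1*, and -0.40 to 0.32 for *Sqle*. Over all genes, the median log2 fold change in fast-growing PNs versus controls was 0.11 with the trend removed, beside 0.02 without that removal. In all PNs versus controls it was 0.13 with the trend removed and 0.11 with the myelinating SC score, beside 0.10 with neither. The 5 genes most like the enzymes were the same under both alternatives.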

Other observations

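In genes that respond to oxysterols, export sterols, or esterify them, 2 of 12 rose and none fell in all PNs versus controls, beside 12.9% of all genes called higher and 13.4% lower. *Cyp46a1*, the neuronal cholesterol 24-hydroxylase, rose from 0.912 ± 0.637 to 3.26 ± 1.31 CPM (log2 fold change 1.81 ± 0.49, edgeR adjusted p = 0.0146), and *Lcat*, which esterifies cholesterol on lipoproteins, rose from 5.06 ± 3.20 to 12.9 ± 3.99 CPM (1.35 ± 0.37, adjusted p = 0.0152). Both calls were lost without control DRG4 (adjusted p = 0.0861 and 0.0912) and without control DRG5 (adjusted p = 0.0882 and 0.103), and with muscle and fat scores as covariates (1.95 and 0.59, adjusted p = 0.148 and 0.4997). Between growth groups, *Apoe* measured 417 ± 127 CPM (slow) and 797 ± 166 CPM (fast), a log2 difference of 0.93 ± 0.21 that did not pass (adjusted p = 0.0544).

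In the branches that leave the pathway at farnesyl diphosphate, 2 of 8 genes fell in all PNs versus controls, where 13.4% of all genes were called lower. The 2 genes encode both subunits of the synthase that makes the side chain of coenzyme Q. *Pdss2* fell from 13.9 ± 2.29 to 6.31 ± 1.63 CPM (-1.13 ± 0.22, edgeR adjusted p = 0.00169), and every PN lay below every control. *Pdss1* fell from 8.09 ± 1.39 to 4.91 ± 1.29 CPM (-0.72 ± 0.24, adjusted p = 0.0367), a call that was kept under 18 of 25 alternative settings, and under 24 of 25 for *Pdss2*. The count of 2 became 4 without control DRG3, and 1 without DRG4, DRG5, or library 1179. The number of all genes called in those fits is not given here, so these counts have no background. With muscle and fat scores as covariates, both calls were lost (*Pdss2* -0.75, adjusted p = 0.328; *Pdss1* -0.29, adjusted p = 0.728), and the part of fat and muscle RNA in these falls was not tested further.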
